A study of Mus musculus with 8 samples.

Results

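Circadian clock genes were followed in mouse retinal organoids through loss of METTL3, the catalytic subunit of the complex that writes N6-methyladenosine (m6A) on messenger RNA. The 10 genes were taken by name: the activators Clock and Arntl (also called Bmal1), the repressors Per1, Per2, Cry1 and Cry2, the nuclear receptors Nr1d1 and Nr1d2, and the clock output factors Dbp and Tef. They made up 10 of 35494 loci in the table for 1 h of treatment and 10 of 35541 loci in the tables for 8 h and 24 h.

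The organoids were grown to day 6 from Rx:GFP cells in which FKBP12F36V-HA, a degron tag, had been knocked into the C-terminal end of both endogenous Mettl3 alleles. Every group carried this genotype and was grown with AGN at 0.1 µM, and the labels name 1 cell line. Groups were untreated (0 h) or given dTAG-13, the small molecule that directs proteins with this tag to degradation, at 125 nM for 1 h, 8 h or 24 h. Each of the 4 groups had 2 replicates, 8 polyA RNA libraries in all, and the labels do not say whether the replicates were separate cultures or whether the 0 h group received solvent. According to the labels, treatment took place on days 5 and 6 and the cells were collected at the same time. A 2 h treatment also named there was not analysed here.

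In the clock of mammalian cells, CLOCK and ARNTL bind DNA together at E-box sequences and switch on the Per and Cry genes, whose proteins then inhibit them. A linked loop consists of NR1D1 and NR1D2 (REV-ERB alpha and beta), which repress Arntl, and the ROR receptors, which activate it. DBP and TEF are related factors that act on D-box sequences and carry the rhythm to output genes. The retina is among the tissues that hold a circadian clock of their own. m6A marks many messenger RNAs for faster decay and has been linked to the processing of clock transcripts.

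Each table gives 1 value per condition, as FPKM (fragments per kilobase of transcript, scaled to sequencing depth) with a lower and an upper bound whose confidence level is not given in the sources used here. No spread between replicates could therefore be computed, and no p-value is given for any gene. A gene was called higher or lower where it reached 1 FPKM in either condition, its FPKM changed at least 1.5-fold and its 2 intervals did not overlap. Fold changes are on the scale of log2(FPKM + 0.1). Estimated counts from the paired tables were compared as log2(count + 1), with an SE from the deposited count variances, which covers the error model of the authors' software only. Summed estimated counts lay between 31361518 and 32562075 per condition. Ratios were taken only within a table, because the 3 tables were normalised separately, and all 3 comparisons share the 0 h libraries. In these bulk organoids, fewer cells of a type and less RNA per cell cannot be told apart. No condition was sampled over a cycle of the clock, so a shift of clock phase and a change of mean level cannot be told apart.

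All 10 clock genes were present in each table, and 9 of them passed the FPKM filter, each with at least 1 FPKM in both conditions. Per2 stayed under 1 FPKM throughout. Arntl was lower after 8 h and 24 h of dTAG-13, and Nr1d2 was higher after 8 h. No clock gene was called at 1 h, against 0.402% of 13690 tested loci called in either direction (0.117% higher and 0.285% lower). At 8 h, 2 of 9 tested clock genes were called, 1 higher and 1 lower, against 4.43% of 13825 loci (3.49% higher and 0.94% lower). At 24 h, 1 of 9 was called, lower, against 5.48% of 13910 loci (3.83% higher and 1.65% lower). The rest of the clock genes showed ratios on both sides of 0. At 1 h, 4 tested clock genes lay above 0 and 5 below it. At 8 h and at 24 h, 5 lay above and 4 below.

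On the log2 FPKM scale the 9 tested clock genes had a median ratio of -0.05 after 1 h, 0.08 after 8 h and 0.02 after 24 h. The medians over all tested loci were 0.01, 0.01 and 0.02 in the same order, each within 0.1 of that of the clock genes. Without regard to sign, the median size of the clock genes' ratios was 0.26, 0.20 and 0.20 in the same order, beside 0.12, 0.23 and 0.26 over all tested loci. In estimated counts the median size at 1 h was 0.11 for the clock genes and 0.11 over all tested loci, so the wider spread at 1 h was seen in FPKM and not in counts.

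**Figure D1:**
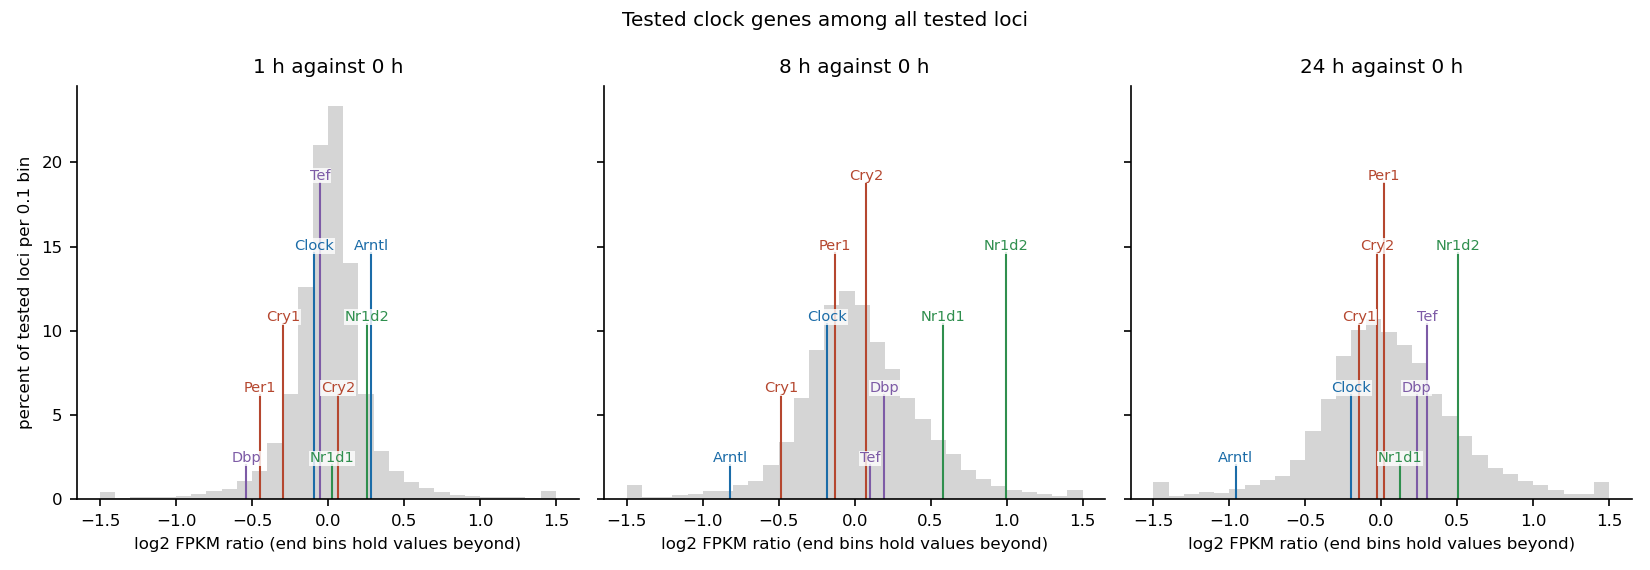
Percent of tested loci (vertical axis) in bins of 0.1 of the log2 FPKM ratio against 0 h (horizontal axis), with a labelled line at the ratio of each of the 9 tested clock genes; the heights of the lines only separate the labels. Arntl lies in the left tail at 8 h and 24 h and Nr1d2 in the right tail at 8 h, while most other clock genes sit among the bulk of loci.

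The levels before treatment spanned a wide range. FPKM is a value per length of transcript, so levels can be ordered between genes. At 0 h the order was Cry1, Tef, Dbp, Cry2, Clock, Per1, Nr1d2, Arntl, Nr1d1 and Per2 in every table, from 25.4 FPKM for Cry1 to 0.669 FPKM for Per2 in the 8 h table. The interval of Cry1 did not overlap that of Tef, the next gene in the order, in any table. Arntl and Nr1d1 were also separate in the 8 h and 24 h tables. All other neighbours in the 0 h order overlapped. After 8 h of dTAG-13 Nr1d2 stood at rank 4, above Cry2, and Arntl at rank 9, below Nr1d1, although in both cases the intervals of those neighbours overlapped.

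**Figure D2:**
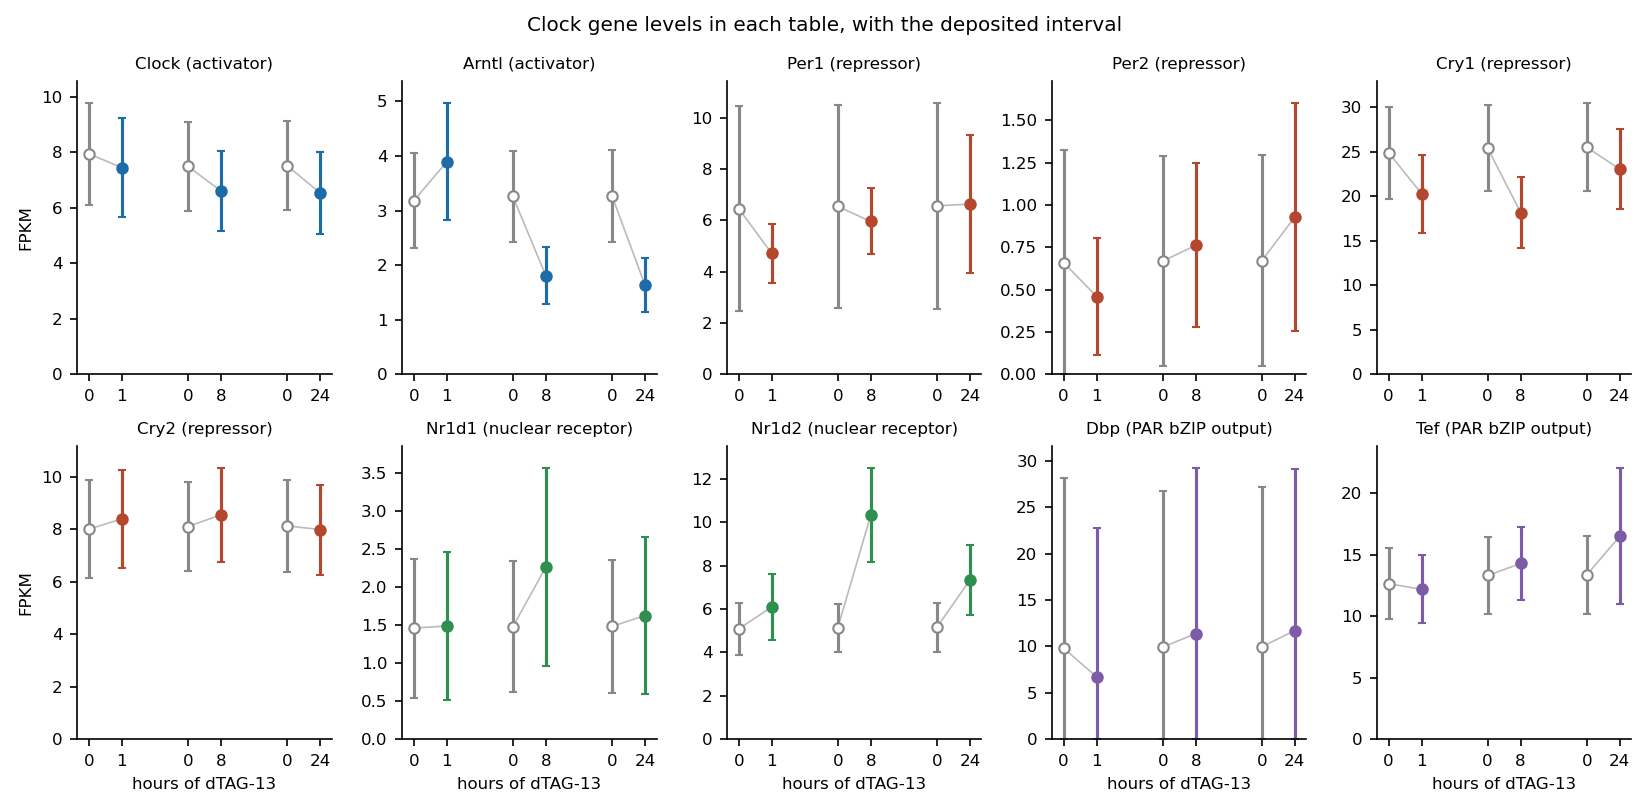
FPKM (vertical axis, linear from 0, with its own scale for each gene) of the 10 clock genes by hours of dTAG-13 in each of the 3 tables, with grey open points for 0 h and coloured points for dTAG-13; bars are the deposited lower and upper bounds. Arntl at 8 h and 24 h and Nr1d2 at 8 h are the points whose bars clear those of 0 h with a change of at least 1.5-fold.

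Among the activators, Arntl was called lower at both late times and Clock was not called. Arntl, the DNA-binding partner of CLOCK, lies at chr7:113207465-113314126 on the plus strand of GRCm38. After 1 h its level was 3.89 FPKM (interval 2.82 to 4.97) against 3.18 FPKM (2.31 to 4.06) at 0 h. After 8 h it was 1.80 FPKM (1.28 to 2.33) against 3.26 FPKM (2.42 to 4.09). After 24 h it was 1.63 FPKM (1.14 to 2.12) against 3.27 FPKM (2.42 to 4.11). The treated interval thus overlapped that of 0 h at 1 h and lay wholly below it at 8 h and 24 h. Arntl was 1.77-fold lower at 8 h (log2 ratio -0.82) and 1.94-fold lower at 24 h (log2 ratio -0.96). Only 2.50% of tested loci at 8 h and 2.54% at 24 h had a lower ratio. In estimated counts Arntl went from 280 to 157 at 8 h, a log2 ratio of -0.83 ± 0.27 (SE). At 24 h its counts went from 277 to 139, a log2 ratio of -1.0 ± 0.28 (SE). FPKM and counts thus gave the same size of change for Arntl.

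The 250 bases before the first Arntl start in RefSeq (chr7:113207215-113207464, plus strand, GRCm38.p6) are shown because Arntl was the gene called at both late times. Capitals mark CCAAT boxes, here on the reverse strand as ATTGG, a sequence bound by the general factor NF-Y.
Arntl upstream: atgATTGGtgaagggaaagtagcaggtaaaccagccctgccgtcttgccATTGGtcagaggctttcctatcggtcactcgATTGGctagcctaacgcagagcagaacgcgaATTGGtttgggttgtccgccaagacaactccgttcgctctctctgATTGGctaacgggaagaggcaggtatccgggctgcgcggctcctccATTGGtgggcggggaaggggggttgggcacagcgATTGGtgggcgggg
The stretch holds 7 CCAAT boxes. How often a stretch holds as many was not counted. At least 1 CCAAT box on either strand was found in 37.4% of 32851 RefSeq windows of 300 bases. These windows reach from 250 bases before a start to 50 after it. AGGTCA, the half-site that REV-ERB and ROR receptors recognise, was found on either strand in 16.3% of these windows. Arntl holds 1, after its second RefSeq start (chr7:113207530-113207559, capitals mark the half-site).
Arntl half-site: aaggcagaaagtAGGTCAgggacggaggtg
A match is a run of letters and was not tested for binding.

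Clock, the other activator (chr5:76209868-76304792, minus strand), went from 7.95 FPKM (6.12 to 9.78) to 7.46 FPKM (5.68 to 9.24) at 1 h. Its level went from 7.50 FPKM (5.90 to 9.10) to 6.61 FPKM (5.15 to 8.06) at 8 h. At 24 h it was 6.54 FPKM (5.07 to 8.01) against 7.53 FPKM (5.91 to 9.14). The log2 ratios of Clock were -0.09, -0.18 and -0.20 in order of time, and its intervals overlapped each time. In counts the ratio at 24 h was -0.24 ± 0.20 (SE).

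Both nuclear receptors had ratios above 0 at 8 h, and Nr1d2 was called. Nr1d2, which encodes REV-ERB beta, lies at chr14:18204054-18239127 on the minus strand. Its level was 6.09 FPKM (4.56 to 7.63) after 1 h against 5.07 FPKM (3.89 to 6.26) at 0 h. After 8 h it was 10.3 FPKM (8.17 to 12.5) against 5.13 FPKM (4.03 to 6.24). After 24 h it was 7.34 FPKM (5.71 to 8.96) against 5.15 FPKM (4.03 to 6.27). The intervals were apart at 8 h and overlapped at 1 h and 24 h. Nr1d2 was 1.99-fold higher at 8 h (log2 ratio 1.00), and 2.02% of tested loci had a higher ratio. Its estimated counts went from 766 to 1546, a log2 ratio of 1.01 ± 0.21 (SE). At 24 h the ratio was 1.42-fold (log2 0.50), under the call threshold. The 8 h and 24 h samples were not compared with each other, since they stand in separately normalised tables.

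The 229 bases that end before the first Nr1d2 exon (chr14:18239128-18239356, minus strand, GRCm38.p6) are shown because Nr1d2 was the gene called higher. Capitals mark a CCAAT box and an AGGTCA half-site.
Nr1d2 upstream: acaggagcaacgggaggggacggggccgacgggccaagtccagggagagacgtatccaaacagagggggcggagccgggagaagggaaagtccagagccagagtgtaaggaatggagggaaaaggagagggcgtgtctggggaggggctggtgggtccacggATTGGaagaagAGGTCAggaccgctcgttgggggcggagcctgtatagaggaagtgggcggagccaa
Both called genes thus carry 1 AGGTCA half-site in a RefSeq window, as do Per1 and Clock among the clock genes that were not called.

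Nr1d1, which encodes REV-ERB alpha (chr11:98767932-98775333, minus strand), sat just outside the call at 8 h. It went from 1.48 FPKM (0.617 to 2.34) to 2.27 FPKM (0.966 to 3.57), with intervals that overlapped. With 0.1 FPKM added, its log2 ratio of 0.58 fell narrowly short of 1.5-fold. With 0.01 FPKM added it was 0.61, past 1.5-fold, and the overlap of the intervals still kept Nr1d1 from a call. At 1 h Nr1d1 was at 1.49 FPKM against 1.46 FPKM, and at 24 h at 1.63 FPKM against 1.48 FPKM. Its precision was low: the count ratio at 8 h was 0.61 ± 0.58 (SE). Nr1d1 overlaps Thra, the thyroid hormone receptor alpha gene, by 1075 bases on the opposite strand. The deposited locus of Nr1d1 is also that of Thra (chr11:98740638-98775333), and 28369 bases of Thra lie in it. Whether the counting used strand is not given in the sources used here, so the reads of Nr1d1 and Thra may not have been told apart. Thra itself stood at 12.9 FPKM at 0 h in the 8 h table and had log2 ratios of 0.09, 0.38 and 0.41 at 1 h, 8 h and 24 h. The part of Thra in the Nr1d1 values was not tested.

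**Figure D3:**
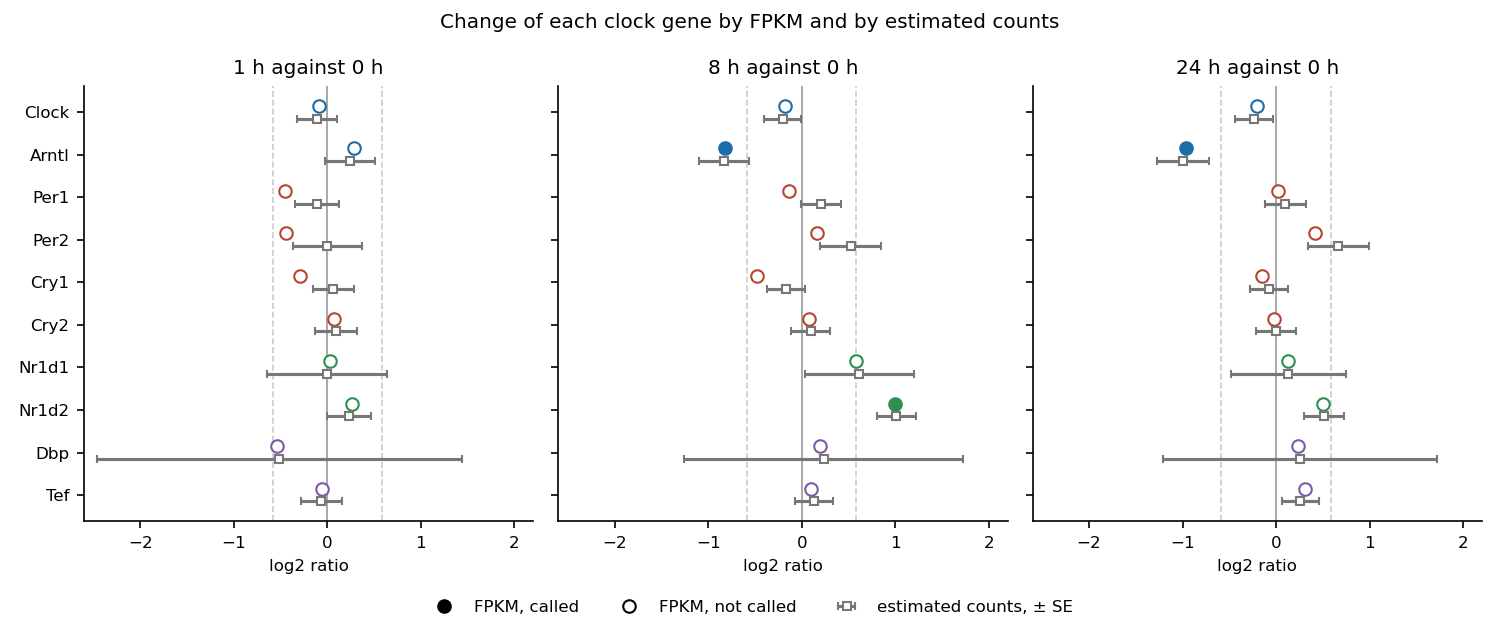
Log2 ratio against 0 h (horizontal axis) of the 10 clock genes by FPKM (circles, filled where called) and by estimated counts (squares, bars ± 1 SE), with dashed lines at 1.5-fold. Arntl and Nr1d2 give the same ratio by both measures, whereas the circles of Per1, Per2 and Cry1 lie to the left of their squares at 1 h and 8 h.

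The Per and Cry repressors gave no call at any time. Per1, a repressor that is also induced quickly by cAMP and serum (chr11:69095217-69109960, plus strand), was at 4.71 FPKM (3.56 to 5.86) after 1 h against 6.47 FPKM (2.45 to 10.5) at 0 h. After 8 h Per1 was at 5.96 FPKM (4.67 to 7.25) against 6.55 FPKM (2.58 to 10.5). After 24 h Per1 was at 6.64 FPKM (3.95 to 9.34) against 6.57 FPKM (2.56 to 10.6). All pairs of Per1 intervals overlapped. Its log2 FPKM ratios were -0.45, -0.13 and 0.02, and its count ratios were -0.11 ± 0.23, 0.21 ± 0.21 and 0.10 ± 0.22 (SE). The sign for Per1 at 8 h therefore differed between FPKM and counts.

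Per2, its paralog (chr1:91415982-91459324, minus strand), was the least abundant clock gene. It was at 0.459 FPKM (0.113 to 0.806) after 1 h against 0.660 FPKM (0 to 1.32) at 0 h. After 8 h it was at 0.762 FPKM (0.278 to 1.2) against 0.669 FPKM (0.0461 to 1.29). After 24 h it was at 0.929 FPKM (0.257 to 1.60) against 0.671 FPKM (0.0484 to 1.29). All these intervals overlapped, and Per2 was outside the FPKM filter. Its estimated counts were 87.1 against 87.1 at 1 h, 127 against 88.4 at 8 h and 139 against 87.5 at 24 h. The count ratios of Per2 were 0.00 ± 0.37, 0.52 ± 0.32 and 0.67 ± 0.32 (SE), larger than its FPKM ratios of -0.44, 0.17 and 0.42.

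Cry1, the most abundant clock gene and a repressor of CLOCK and ARNTL (chr10:85131700-85185064, minus strand), was at 20.3 FPKM (15.9 to 24.7) after 1 h against 24.9 FPKM (19.8 to 30.1) at 0 h. After 8 h it was at 18.2 FPKM (14.2 to 22.2) against 25.4 FPKM (20.6 to 30.3). After 24 h it was at 23.1 FPKM (18.5 to 27.6) against 25.5 FPKM (20.6 to 30.5). The Cry1 intervals overlapped at each time. Its log2 FPKM ratio of -0.48 at 8 h was -0.17 ± 0.20 (SE) in counts, and the ratio of -0.30 at 1 h was 0.07 ± 0.22 (SE) in counts. Cry2, its paralog (chr2:92403646-92434043, minus strand), had the smallest ratios of the clock genes, with FPKM ratios of 0.07, 0.08 and -0.03 on the log2 scale. Its levels lay between 7.98 and 8.54 FPKM in all conditions of all tables.

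The gap between FPKM and counts was shared by Per1, Per2 and Cry1. At 1 h the log2 count ratio exceeded the log2 FPKM ratio by 0.33 for Per1, 0.44 for Per2 and 0.36 for Cry1. At 8 h the gaps were 0.34, 0.36 and 0.31, and at 24 h they were 0.08, 0.25 and 0.07. A gap over 0.3 in either direction was found in 3.02% of tested loci at 1 h, 3.83% at 8 h and 4.26% at 24 h. The level of 0.3 was chosen after these values were seen. The other 7 clock genes had gaps of 0.04 or less in size. FPKM divides by a transcript length, so the 2 measures can part where the estimated mix of isoforms differs between conditions. That mix was not tested.

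E-boxes, the kind of sequence through which CLOCK and ARNTL act, were looked up as letters in the RefSeq windows, with no measure of binding. Of the 10 clock genes 9 had an entry, with 14 windows in all. CACGTG, which reads the same on both strands, was found in 7.15% of all windows of this length. Capitals mark the E-box in 30 bases each from Cry1 (chr10:85185097-85185126, minus strand), Per1 (chr11:69098771-69098800, plus strand) and Tef (chr15:81802534-81802563, plus strand).
Cry1 E-box: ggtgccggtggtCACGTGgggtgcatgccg
Per1 E-box: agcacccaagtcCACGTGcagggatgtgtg
Tef E-box: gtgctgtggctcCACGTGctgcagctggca
None of these 3 genes was called at any time. The Per1 window also holds TTATGCAA, a D-box-like sequence, and the window at its second start holds TGACGT, the core of the cAMP response element (chr11:69100008-69100037, plus strand, capitals mark the core).
Per1 cAMP element core: gagctcagcggcTGACGTcggtttccctgg
TTATGTAA or TTATGCAA, on either strand, was found in 1.66% of all windows, and TGACGT in 7.51%.

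Some genes that answer cAMP and serum, as Per1 does, were called. Of 9 such genes, all tested at 1 h, 1 was called higher, against 0.117% of all tested loci: Fos, a subunit of the AP-1 factor, at 9.69 FPKM (6.79 to 12.6) against 3.68 FPKM (2.42 to 4.94). At 8 h, 4 of 9 were called higher, against 3.49% of all tested loci. Fos stood at 24.5 FPKM against 3.73 FPKM, and the log2 ratios of Fosb, Egr1 and Junb were 3.29, 1.28 and 0.90. At 24 h, 8 were tested, without Fosb. None of them was called higher, and 1 was called lower, against 1.65% of all tested loci. It was Ier2, at 16.7 FPKM against 27.7 FPKM. Per1 was not called at any of these times.

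Of the output factors, Tef gave a precise value and Dbp did not. Tef (chr15:81802421-81826863, plus strand) was at 12.2 FPKM (9.42 to 15) after 1 h against 12.7 FPKM (9.79 to 15.5) at 0 h. After 8 h Tef was at 14.3 FPKM (11.3 to 17.3) against 13.3 FPKM (10.2 to 16.5). After 24 h Tef was at 16.5 FPKM (11 to 22.1) against 13.4 FPKM (10.2 to 16.6). The Tef intervals overlapped each time, and its count ratio at 24 h was 0.26 ± 0.20 (SE). Dbp (chr7:45705088-45710203, plus strand), a strongly rhythmic gene in many tissues, was at 6.71 FPKM after 1 h against 9.80 FPKM. Dbp was at 11.4 FPKM against 9.92 FPKM at 8 h and at 11.7 FPKM against 9.96 FPKM at 24 h. Each Dbp interval began at 0 and reached at least 22.8 FPKM, and its count SE on the log2 scale was 1.46 or more, so a change in Dbp was not detectable here. Dbp overlaps Sphk2 by 737 bases on the opposite strand, and its locus in the tables also spans Rpl18, a ribosomal protein gene at 1879 FPKM. Their part in the Dbp values was not tested.

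The wider clock pathway was counted from a list of 29 further genes, of which 28 were found by name at 1 h and 27 at 8 h and 24 h. At 1 h, 24 were tested, and 2 were called lower (0.285% of all tested loci) and none higher. Of 25 tested at 8 h, 2 were called higher (3.49% of all tested loci) and none lower. Of 24 tested at 24 h, 3 were called higher (3.83% of all tested loci) and 2 lower (1.65%). The medians of the tested genes were -0.05, -0.06 and -0.01 on the log2 scale.

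Repressors outside the Per and Cry families supplied the early calls. Ciart, a repressor of CLOCK and ARNTL, was at 2.72 FPKM (1.56 to 3.87) after 1 h against 6.35 FPKM (3.94 to 8.76), a log2 ratio of -1.2. In counts the log2 ratio of Ciart at 1 h was -0.94 ± 0.34 (SE), and it was no longer called. Ciart was at 6.12 FPKM against 6.44 FPKM at 8 h. At 24 h it was at 10.5 FPKM (7.13 to 13.8) against 6.46 FPKM (3.93 to 8.99), past 1.5-fold with overlapping intervals. The log2 count ratio of Ciart at 24 h was 0.80 ± 0.28 (SE). An antisense gene, C920021L13Rik, covers Ciart on the opposite strand, so the reads of the pair may not have been told apart. Bhlhe40 (DEC1), which competes for E-boxes, was at 4.18 FPKM (2.12 to 6.23) after 1 h against 9.36 FPKM (6.76 to 11.9). After 8 h Bhlhe40 was at 14.4 FPKM (10.8 to 18.0) against 9.47 FPKM (7.06 to 11.9), with overlapping intervals. After 24 h it was at 21.1 FPKM (15.8 to 26.3) against 9.51 FPKM (7.07 to 11.9). Bhlhe40 was thus called lower at 1 h (log2 -1.14) and higher at 24 h (log2 1.14). Its paralog Bhlhe41 was at 1.82 FPKM (1.26 to 2.38) against 3.19 FPKM (1.72 to 4.66) at 1 h, past 1.5-fold with overlapping intervals. Per3 and Timeless gave no call. The values of Per3 were imprecise, with count SEs of 0.98, 0.82 and 0.83 on the log2 scale at 1 h, 8 h and 24 h.

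Nfil3, a bZIP factor that competes with DBP and TEF at D-boxes, was called higher at 8 h and at 24 h. It was at 14.7 FPKM (11.4 to 18.0) against 13.4 FPKM (10.4 to 16.5) at 1 h. At 8 h it was at 26.4 FPKM (21.1 to 31.6) against 13.4 FPKM (10.6 to 16.2). At 24 h it was at 22.8 FPKM (18.2 to 27.4) against 13.4 FPKM (10.6 to 16.3). The Nfil3 log2 ratios at 8 h and 24 h were 0.97 and 0.76, beside 0.10 and 0.30 for Tef. Noct, a clock output gene also known as nocturnin, was likewise called higher at both late times, at 18.9 FPKM (15.1 to 22.8) against 10.7 FPKM (8.34 to 13) at 8 h and at 21.9 FPKM (17.4 to 26.5) against 10.7 FPKM (8.32 to 13.1) at 24 h.

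Of the ROR receptors, which activate Arntl, Rorb was called lower at 24 h, at 1.2 FPKM (0.893 to 1.5) against 2.12 FPKM (1.64 to 2.60). The Rorb call was lost with a pseudocount of 1 FPKM. Rora was at 2.80 FPKM (1.67 to 3.93) against 2.19 FPKM (1.44 to 2.95) at that time, with overlapping intervals. At 1 h Rora was at 1.70 FPKM (0.894 to 2.51) against 2.18 FPKM (1.28 to 3.09), again with overlapping intervals. Its estimated counts at 1 h went from 638 to 361, a log2 ratio of -0.82 ± 0.25 (SE). Among the outputs, Tsc22d3, a glucocorticoid-responsive gene, was called lower at 24 h, at 17.9 FPKM (14.2 to 21.7) against 27.8 FPKM (22.2 to 33.4). None of the tested kinases and ubiquitin ligase parts, which set the turnover of PER and CRY proteins, was called at any time. They numbered 10 at 8 h and 9 at the other times, with log2 ratios between -0.30 and 0.50. Of the activator paralogs, Npas2 stayed under 1 FPKM and Arntl2 gave no call.

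**Figure D4:**
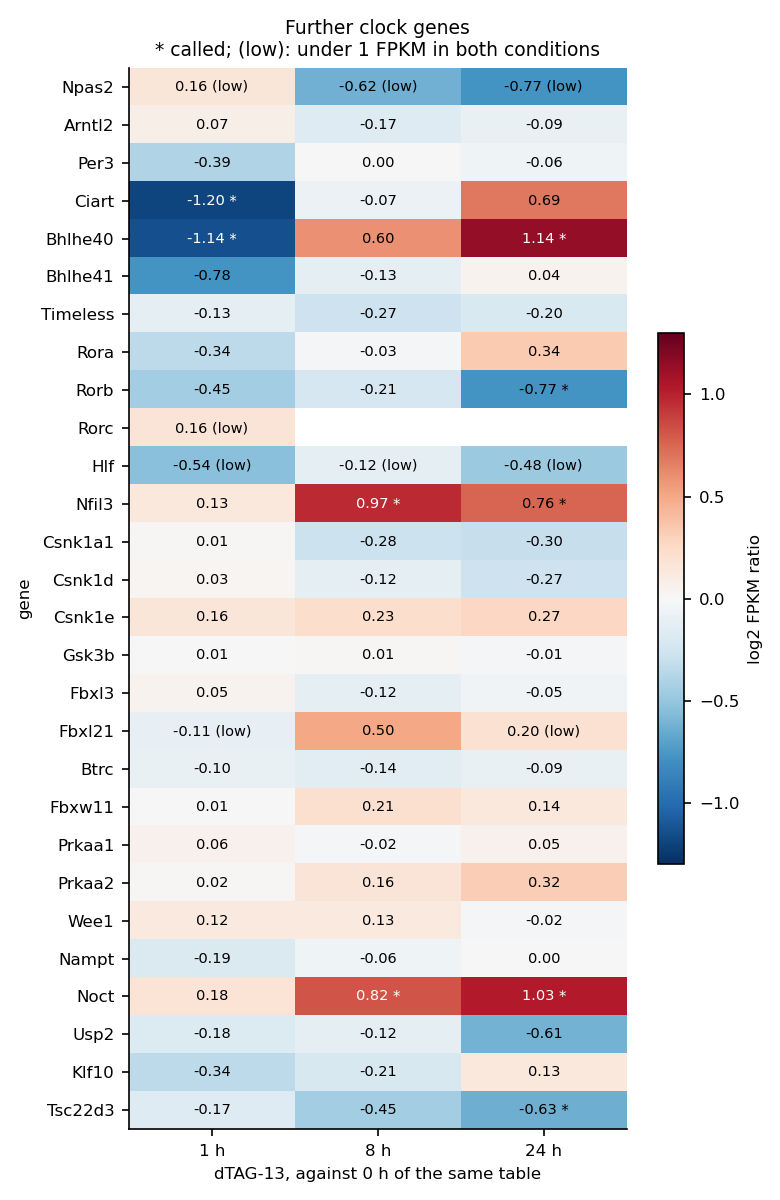
Log2 FPKM ratio (colour and printed number) of the further clock genes, 1 row per gene, at 1 h, 8 h and 24 h of dTAG-13 against 0 h of the same table; an asterisk marks a call and an empty cell a gene not found by name. Bhlhe40 goes from -1.14 at 1 h to 1.14 at 24 h, and Nfil3 and Noct are called higher at both late times.

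The transcripts of the clock genes differ in how densely they are cut into exons. As background, exon junction complexes are known to keep m6A away from short internal coding exons, so long exons and transcripts with few junctions carry more of it. In GENCODE M21, Arntl-201 has 20 exons and 7.99 coding junctions per kb of coding sequence, and Nr1d2-201 has 8 exons and 4.05 per kb. The median over 10964 expressed genes was 6.16 per kb. The output factors and nuclear receptors had the fewest, with 3.08 for Dbp, 3.51 for Tef and 3.79 for Nr1d1. Clock had 7.41 per kb, and the Per and Cry genes lay between 5.42 and 6.05 per kb. The longest internal exon had 620 bases in Nr1d2 and 247 in Arntl. Among clock genes that were not called, it had 797 bases in Per2, 644 in Nr1d1 and 617 in Per1. The rest lay between 295 and 411. Among all genes, the ratio at 8 h went down with junction density. Genes in the third decile of density, that of Nr1d2, had a median log2 ratio at 8 h of 0.19 (quartiles -0.02 and 0.42), and those in the eighth, that of Arntl, had -0.11 (quartiles -0.26 and 0.04). At 24 h these medians were 0.17 and -0.12. Nr1d2 at 8 h (1.00) and Arntl (-0.82) lay beyond the quartiles of their own decile. A 1.5-fold change in their direction is already beyond these quartiles, so the call itself puts them there. Of the clock genes in the third decile that were not called, Nr1d1 (0.58) lay above the upper quartile at 8 h. Tef (0.10) lay between the quartiles. Tsc22d3 did not follow the order by density. With 4.87 junctions per kb it is in the fourth decile, whose median at 24 h was 0.08 (lower quartile -0.16). Its log2 ratio was -0.63. Density was chosen with the results known, and its part in the changes was not tested.

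**Figure D5:**
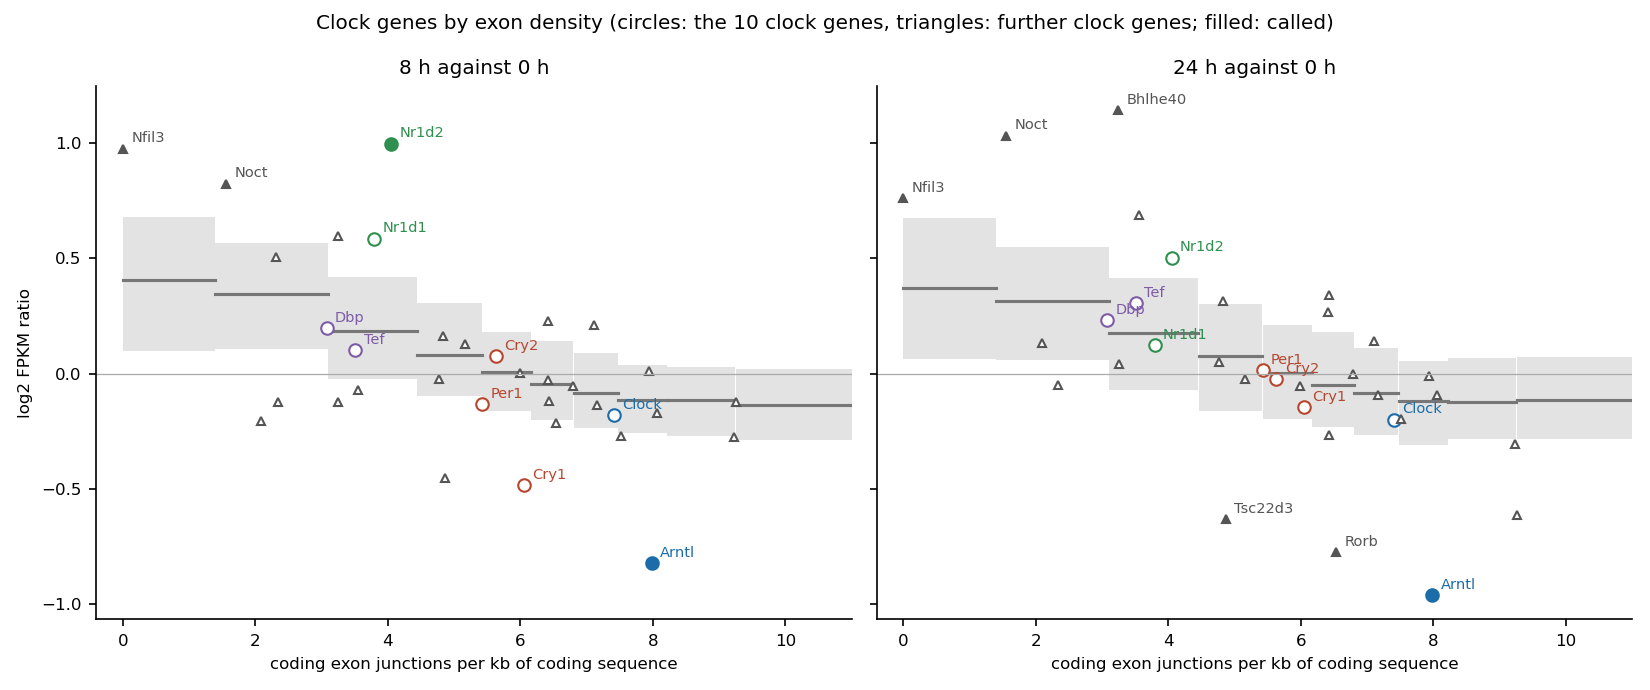
Log2 FPKM ratio against 0 h (vertical axis) by coding exon junctions per kb of coding sequence (horizontal axis) at 8 h and 24 h; grey lines and bands are the median and quartiles of each decile of all genes, circles the tested clock genes and triangles the further clock genes, filled where called. The highest decile runs past the edge of the axis. Nr1d2, Nfil3 and Noct, called higher, stand to the left of 6.16 junctions per kb, the median of all genes, and Arntl, called lower, to the right of it, while Tsc22d3, called lower at 24 h, stands to the left at 4.87.

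GGACT, a common form of the sequence that METTL3 methylates, did not follow the same order. Arntl held 7 in its transcript (2.41 per kb) and Nr1d2 held 3 (0.64 per kb), against a median of 1.05 per kb over the 10964 genes. Cry2, the gene with the smallest ratios, held 2.52 per kb, and Dbp held none. Methylation itself was not measured in these libraries.

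Arntl had the largest sum of absolute log2 FPKM ratios over the 3 times, at 2.06, followed by Nr1d2 at 1.76. The 5 genes with the nearest profile among 8512 genes of at least 5 FPKM, by Euclidean distance over the 3 log2 ratios, were Platr10 (0.167), Capza1 (0.188), Eif2b3 (0.245), Sdsl (0.271) and Dscc1 (0.272). A distance under 0.5, a radius chosen after the values were seen, was found for 82 genes. None of these 5 genes is on the clock lists used here. Eif2b3 and Dscc1 were called lower at 8 h and 24 h and Platr10 at 24 h, while Capza1 and Sdsl were not called. Arntl itself stayed under the 5 FPKM asked of the other genes.

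Mettl3 mRNA, whose protein is the target of dTAG-13, was at 19.1 FPKM (8.82 to 29.4) after 1 h against 19.2 FPKM (9.92 to 28.5). At 8 h it was at 19.4 FPKM (10.8 to 28.0) against 19.4 FPKM (10.7 to 28.1). At 24 h it was at 17.0 FPKM (8.50 to 25.5) against 19.4 FPKM (10.6 to 28.3). The intervals overlapped, and a degron acts on protein, so mRNA does not check the depletion. Of 9 markers of retinal progenitors and eye field, 8 were found in the 8 h and 24 h tables, each at 18.1 FPKM or more at 0 h. Their summed level was 783 FPKM against 631 FPKM at 8 h and 838 FPKM against 633 FPKM at 24 h, where Rax and Lhx2 were called higher. The 5 pluripotency markers were found too. Their sums were 255 FPKM against 284 FPKM at 8 h and 188 FPKM against 285 FPKM at 24 h. Dppa5a was called lower at 24 h, at 109 FPKM against 200 FPKM, and makes up most of that difference. Pou5f1, Nanog and Esrrb had lower FPKM at 24 h with overlapping intervals. Zfp42 went the other way, at 22.8 FPKM against 20.1 FPKM, also with overlapping intervals. Of the photoreceptor markers, Nrl was under 1 FPKM, while Crx was called higher at 8 h (2.89 FPKM against 1.34 FPKM) and at 24 h (3.49 FPKM against 1.34 FPKM). The part of these cell type markers in the changes of Arntl and Nr1d2 was not tested.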

How the data were processed

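Values came from 3 pairs of tables, for 1 h, 8 h and 24 h of dTAG-13, each with its own 0 h column. The authors deposited FPKM with lower and upper bounds and a status, and, in the paired tables, estimated counts with their variance (a value in squared counts, deposited as such). Cufflinks 2.2.1 and Cuffdiff with mm10 are named, per the submitters' processing notes. The aligner, annotation and strand setting are not given in the sources used here. Deposited uncertainty and dispersion columns (12) were not used.

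Calls required status OK in both conditions, at least 1 FPKM in 1 condition, 1.5-fold on log2(FPKM + 0.1) and intervals apart. With 1 value per condition, no replicate test was possible. Alternatives used pseudocounts of 0.01 and 1, no FPKM filter or a minimum of 5, folds of 1.25 and 2, fold alone, centring, and estimated counts with intervals of 2 SD. The procedure was tested on simulated data with planted changes larger than those of Arntl and Nr1d2. Recovery of changes of their size was not tested.

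All 10 clock genes were named, further clock and cAMP genes when called or when their role group was described, and the 5 nearest profiles to the gene with the largest summed change. The clock genes and lists were chosen with earlier results of these data known. The motifs, the exon features, the count against FPKM gap and the stretches printed were chosen after values or sequences were seen. Promoters are from RefSeq (GRCm38.p6, the same assembly as mm10) and gene positions and transcripts from GENCODE M21. Python 3.11.15, pandas 2.3.3, numpy 2.4.6 and matplotlib 3.10.9 were used. The values of 1 listed marker gene are not reported here.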

Additional observations from a re-analysis of the deposited data

How the results depend on the processing

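No paired analysis was possible because each column of the tables is 1 value for a whole condition, and for the same reason no replicate could be left out. Of 72 alternative values for counts and medians, 66 stayed within 1.5 times the reported count or within the count SE, and 6 did not. With a minimum of 5 FPKM, 1 clock gene was called at 8 h and 0 at 24 h, because Arntl does not reach that level. A 2-fold threshold left 0 clock genes at 8 h and 0 at 24 h, and of the further clock genes it left 0 at 8 h and 2 at 24 h (Bhlhe40 and Noct). No called ratio of Arntl or Nr1d2 changed sign, and both genes stayed called under every other alternative run. In estimated counts, Rora, with a lower value, took the place of Ciart among the further genes called at 1 h. Bhlhe40 was added at 8 h and Ciart at 24 h, both as higher. The median of the clock genes at 24 h went from 0.02 to -0.01 when centred. Rorb lost its 24 h call with a pseudocount of 1 and with a minimum of 5 FPKM. Per2 had at most 139 estimated counts in a condition. For Nr1d1 and Dbp the deposited variance limits precision, with count SEs of at least 0.58 and 1.46 on the log2 scale.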

Other observations

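The 0 h column is given 3 times, once in each table. For all 10 clock genes, the 0 h FPKM in the 24 h table was between 1.0033 and 1.0037 times that in the 8 h table. Dividing the 0 h FPKM of the 8 h table by that of the 1 h table gave ratios from 0.943 for Clock to 1.05 for Tef.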
